A study of Mus musculus with 3 samples.

Results

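Stem cells taken from mice given 8 Gy as FLASH were compared with stem cells from mice given the same 8 Gy at CDR. Each side was 1 array, and the comparison took the log2 level on the FLASH array minus the log2 level on the CDR array. It covers all 23185 probe sets that carry 1 gene symbol, out of 25206 on the array, and each of these named probe sets stands for a different gene. Of the named genes, 13184 were detected on the FLASH or CDR array and 10001 were not. The 352 antibody and T cell receptor segments and constant regions among them, of which 168 were detected, were kept apart from the other 13016 detected genes.

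All mice were female C57Bl/6 animals aged 8 to 10 weeks. One group was left non-irradiated, one received total body irradiation of 8 Gy at CDR and one received 8 Gy as FLASH, and there was 1 array in each group. From the bone marrow, 10000 long-term haematopoietic stem cells (LT-HSCs) were isolated 15 days after irradiation, and their total RNA was hybridised to Affymetrix whole transcript arrays. The 3 groups shared strain, sex, age range, tissue and labelled cell type, and no genetic change is named in any of them. CDR is taken to mean conventional dose rate, a reading that the labels leave unstated. The sources used here do not give the dose rates, the sort gate or how many mice gave cells to each array.

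LT-HSCs are the rare marrow cells that divide seldom and can rebuild all blood lineages for the life of the animal. Total body irradiation kills most dividing marrow cells, and the surviving stem and progenitor cells then refill the marrow. FLASH gives the dose within a very short time at an ultra-high dose rate, and the question put by the design is whether stem cells differ in expression when the dose is the same and the dose rate is not.

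With 1 array a side no difference has a replicate check, so "higher" and "lower" describe these arrays and no test was made. A gene counted as detected when the brighter of its FLASH and CDR values passed the 95th percentile of 1364 odorant and pheromone receptor genes on that array, a level of 4.22 on FLASH and 4.16 on CDR. The number of named genes above that level was 13054 on FLASH, 13200 on CDR and 13316 on the non-irradiated array, whose level was 4.15. Where the dimmer array was under its level, the fold is a lower bound taken against that level and is written "at least". The array number limits the precision of every value, and in such pooled RNA fewer cells of a type cannot be told apart from less RNA per cell.

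The labelled cell type was set against stem cell markers. All 8 measured LT-HSC markers (Procr, Slamf1, Kit, Mecom, Hlf, Meis1, Fgd5 and Hoxb5) were above the detection level on all 3 arrays, and their summed linear signal was 3356 without irradiation, 1680 on CDR and 1642 on FLASH, a FLASH to CDR ratio of 0.978. Kit, which was lower on FLASH (-0.40), was the largest part of each sum. Of the 8 markers 5 were higher on FLASH, 2 lower and 1 equal. Markers of other blood cells were present too. All 3 multipotent progenitor markers (Cd34, Cd48 and Flt3) were above the level on every array. Their summed signal was 3686 without irradiation, 3287 on CDR and 3008 on FLASH. All 3 measured NK cell markers, all 5 megakaryocyte markers, all 3 measured erythroid markers and 5 of 6 macrophage markers were above the level on the FLASH array. Also above the level there were 5 of 6 plasma cell and 4 of 5 dendritic cell markers. So were 4 of 6 neutrophil markers and all 4 mast cell and basophil markers. Of the T cell markers the 3 CD3 chain genes (Cd3d, Cd3e and Cd3g) were under it on every array, while Cd8a was above it on every array. Of the B cell markers Cd79a, Cd79b and Pax5 were above it on every array, and Ms4a1 and Ebf1 on none.

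Most genes had the same value on both irradiated arrays or nearly so. Among the 13016 detected genes outside the segments, 42.9% held exactly equal values on FLASH and CDR, 3251 (25%) were higher on FLASH by any amount and 4187 (32.2%) were lower. The median difference was 0, the SD over genes was 0.175 on the log2 scale, and the 1st and 99th percentiles were -0.52 and 0.62. The SD of CDR minus non-irradiated over the same genes was 0.333 and that of FLASH minus non-irradiated 0.336. By the measured values, dim ones included, a 2-fold difference was passed upward by 28 genes (0.215%) and downward by 12 genes (0.0922%). Raised to the detection level, dim values left 23 and 11 of these past 2-fold by their bounds. At 1.5-fold the measured counts were 145 higher (1.11%) and 94 lower (0.722%), and with dim values raised they were 125 and 82. Counts of passing genes below use the measured values unless the bound is named. List counts below are to be read beside these shares, including 25% higher and 32.2% lower by any amount. The lists were chosen with earlier results of these data known, so a list count beside these shares is not a test of that list. Of the 1364 receptor genes 0 passed 2-fold upward and 1 passed it downward. Of the 28 higher genes, 27 were protein coding and 7 read under the level on CDR, and of the 12 lower genes 8 were protein coding and 5 read under the level on FLASH. The plot of difference against level shows the tight band of most genes around 0 and the antibody segments spread above it.

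**Figure D1:**
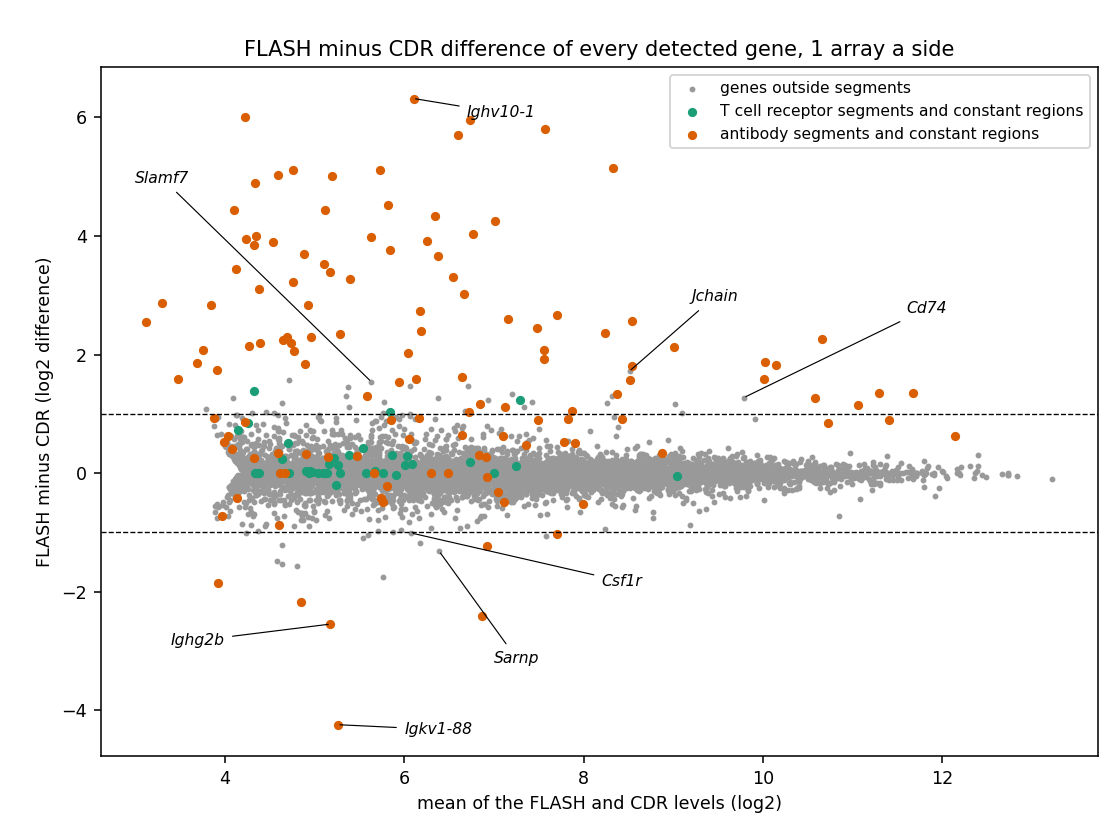
Each point is 1 detected gene, with the mean of its FLASH and CDR levels (log2) on the horizontal axis and the FLASH minus CDR log2 difference on the vertical axis; dashed lines mark 2-fold. Grey points outside the segments lie close to 0 (SD 0.175), while orange antibody genes spread widely; the measured extremes, -4.24 (Igkv1-88) and 6.32 (Ighv10-1), rest on 1 value under the detection level each and are bounds of at least 8.99-fold and at least 34.5-fold.

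Of the 28 genes at least 2-fold higher outside the segments, 3 were on the antibody-secreting cell list: Jchain, Slamf7 and Pou2af1. The largest of the 28 differences was that of Jchain. Jchain, which encodes the joining chain that links IgM and IgA units, read 9.79 on the non-irradiated array, 7.65 on CDR and 9.37 on FLASH, a FLASH minus CDR difference of 1.72. FLASH was thus close to the non-irradiated level and CDR was the low array. Slamf7, a surface receptor of plasma cells, NK cells and other activated leukocytes, read 5.35, 4.86 and 6.40 on the same arrays, and FLASH was the high array (1.55). Pou2af1, the B cell coactivator of octamer factors, read 5.67, 4.65 and 6.11 (1.46). Tnfsf13, which is not on that list, encodes APRIL, a cytokine that sustains plasma cells. It read 5.28 without irradiation, 3.94 on CDR, under the level, and 5.51 on FLASH, so that FLASH was at least 2.54-fold higher. Mzb1, an endoplasmic reticulum protein needed for antibody secretion, read 6.50, 5.22 and 6.06 (0.84), with CDR again the low array.

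The whole antibody-secreting list was less uniform. Of 24 detected members out of 26 measured, 14 were higher, 5 lower and 5 equal, with a median of 0.13 beside 0 over all detected genes. Upward, 5 passed 1.5-fold (all detected genes: 1.11%), and downward 1 did (all detected genes: 0.722%). The last was Ly6c2, a Ly6 surface protein also of monocytes, which read 11.08, 11.21 and 10.49 (-0.72). Sdc1, the plasma cell surface marker syndecan-1, read 4.77 on both irradiated arrays. Prdm1, the plasma cell master regulator, was under the level on all 3 arrays at 3.76. Xbp1, the secretory pathway regulator, differed by 0.14. The summed signal of the 6 plasma cell markers was 1384 without irradiation, 690.3 on CDR and 1229 on FLASH, a FLASH to CDR ratio of 1.78. Jchain makes up most of the gap between these CDR and FLASH sums. The part of the plasma cell sum in the other differences was not tested.

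**Figure D2:**
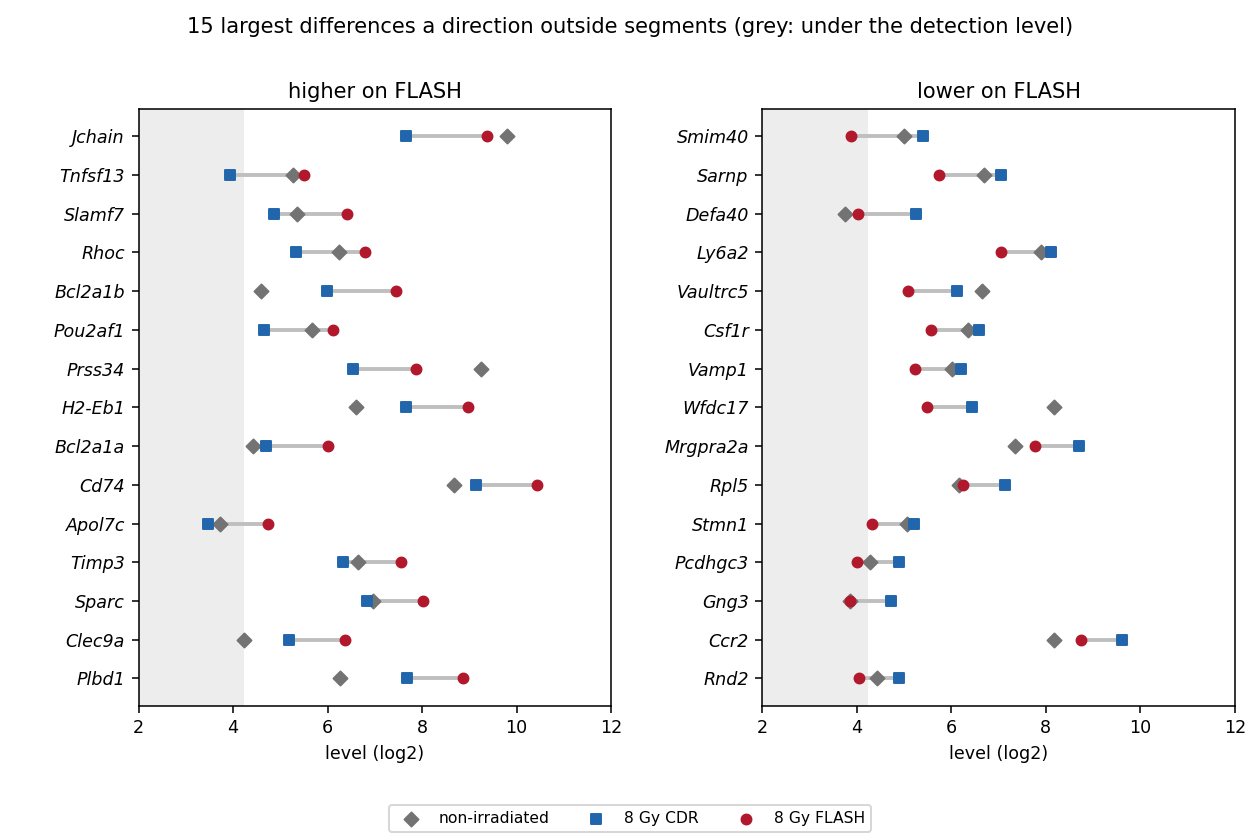
Levels (log2) on the non-irradiated (grey diamond), CDR (blue square) and FLASH (red circle) arrays for the 15 largest differences in each direction outside the segments, 1 value per array, with the shaded range under the FLASH array's detection level of 4.22. On the left the non-irradiated value lies beyond FLASH for Jchain and Prss34 and below CDR for genes such as H2-Eb1, Cd74, Clec9a and Plbd1.

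MHC class II molecules present peptides to helper T cells and are made by B cells, dendritic cells and macrophages. Genes of the I-A alpha and beta chains, of the I-E beta chain and of their chaperone were higher on FLASH. No I-E alpha chain gene was among those read. The beta chain gene H2-Eb1 read 6.61 on the non-irradiated array, 7.66 on CDR and 8.97 on FLASH (difference 1.31). The alpha chain gene H2-Aa read 7.77, 8.44 and 9.60 (1.16), and the beta chain gene H2-Ab1 9.13, 9.45 and 10.37 (0.92). Cd74, the invariant chain that guides class II molecules to the endosome, read 8.68, 9.15 and 10.43 (1.28). For all 4 of these genes the order of the arrays was non-irradiated, CDR, FLASH. H2-DMb2, a chain of the peptide exchange factor, read 6.69, 6.27 and 7.03 (0.76), and its partner H2-DMa differed by 0.04. H2-Oa, a chain of the exchange inhibitor, differed by -0.08.

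The regulators of the class II genes did not share that order. Ciita, the transactivator that switches class II genes on, held the same value on FLASH and CDR. Rfx5, a subunit of the factor that binds their promoters, read 7.29, 6.90 and 6.28, with FLASH the low array (-0.62). Rfxap and Rfxank differed by -0.14 and -0.06. Over the 15 detected members of 16, the median was 0.03, with 8 higher, 6 lower and 1 equal. Of them 5 passed 1.5-fold upward (all detected genes: 1.11%) and 1 downward (all detected genes: 0.722%).

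Class II promoters carry a Y box, an inverted CCAAT motif bound by the factor NF-Y. The letters CTGATTGG were searched on both strands in the RefSeq promoter table (GRCm38.p6), which runs from 250 bases before each start site to 50 after it. They occurred in 4 of the 12 list genes with a promoter there (H2-Aa, H2-Eb1, H2-Eb2 and H2-Oa) and in 1342 of 32817 promoters (4.09%). H2-Ab1, Cd74, Ciita and Rfxap had no promoter in that table, so they were not searched. The 250 bases before the start site of a pair of higher genes and of H2-Oa, which reads -0.08, are shown because all 3 hold the motif, given in capitals, within 62 bases of the start. They lie at chr17:34305617-34305866 (plus strand), chr17:34287824-34288073 (minus strand) and chr17:34092129-34092378 (plus strand).
H2-Eb1: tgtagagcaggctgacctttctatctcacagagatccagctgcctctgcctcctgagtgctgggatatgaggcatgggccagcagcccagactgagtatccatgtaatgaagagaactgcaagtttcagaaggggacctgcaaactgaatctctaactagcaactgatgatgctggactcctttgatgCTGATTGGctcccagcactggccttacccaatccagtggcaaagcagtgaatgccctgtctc
H2-Aa: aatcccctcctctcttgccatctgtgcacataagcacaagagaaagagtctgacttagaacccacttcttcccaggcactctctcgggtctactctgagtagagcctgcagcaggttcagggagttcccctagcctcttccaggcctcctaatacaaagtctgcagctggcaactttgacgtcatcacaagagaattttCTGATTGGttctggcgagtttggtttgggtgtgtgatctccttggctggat
H2-Oa: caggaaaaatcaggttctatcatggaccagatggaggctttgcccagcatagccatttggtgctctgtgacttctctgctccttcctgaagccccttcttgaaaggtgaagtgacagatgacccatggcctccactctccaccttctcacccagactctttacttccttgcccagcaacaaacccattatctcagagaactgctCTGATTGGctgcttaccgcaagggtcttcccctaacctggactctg
The match is a description of letters. Genes holding it had differences from -0.08 to 1.31, with H2-Eb2, which was not detected, at 0.

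Dendritic cell genes were higher on FLASH as well. Clec9a, a receptor of type 1 conventional dendritic cells that senses dead cells, read 4.23 without irradiation, 5.18 on CDR and 6.38 on FLASH (1.20). Plbd1, a phospholipase-like protein, read 6.27, 7.68 and 8.86 (1.18), and Naaa, a lysosomal amidase, 5.50, 6.78 and 7.89 (1.11). In all 3 the non-irradiated array was the lowest and FLASH the highest. The same order held for Ifi205, an interferon-inducible gene, at 3.88, 5.48 and 6.47 (0.99), for Tlr3, the endosomal sensor of double-stranded RNA, at 4.09, 5.01 and 5.92 (0.90), and for the chemokine receptor Xcr1 at 4.20, 5.24 and 6.11 (0.87).

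Of 25 detected dendritic cell genes out of 28 measured, 16 were higher, 3 lower and 6 equal, with a median of 0.17. Upward, 8 of them passed 1.5-fold (all detected genes: 1.11%), and downward 0 did (all detected genes: 0.722%). Like the other lists, this list was chosen with earlier results of these data known. The transcription factors of this lineage differed less. Id2 was 0.55 higher and Zbtb46 0.22 higher, while Irf8, Batf3 and Tcf4 held equal values. Of the 5 dendritic cell markers, Siglech was under the level on all 3 arrays. Their summed signal was 86.5 on the non-irradiated array, 124 on CDR and 209.6 on FLASH, and its part in the class II differences was not tested. The dot plot of the class II, dendritic and antibody-secreting lists shows each member on the 3 arrays.

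**Figure D3:**
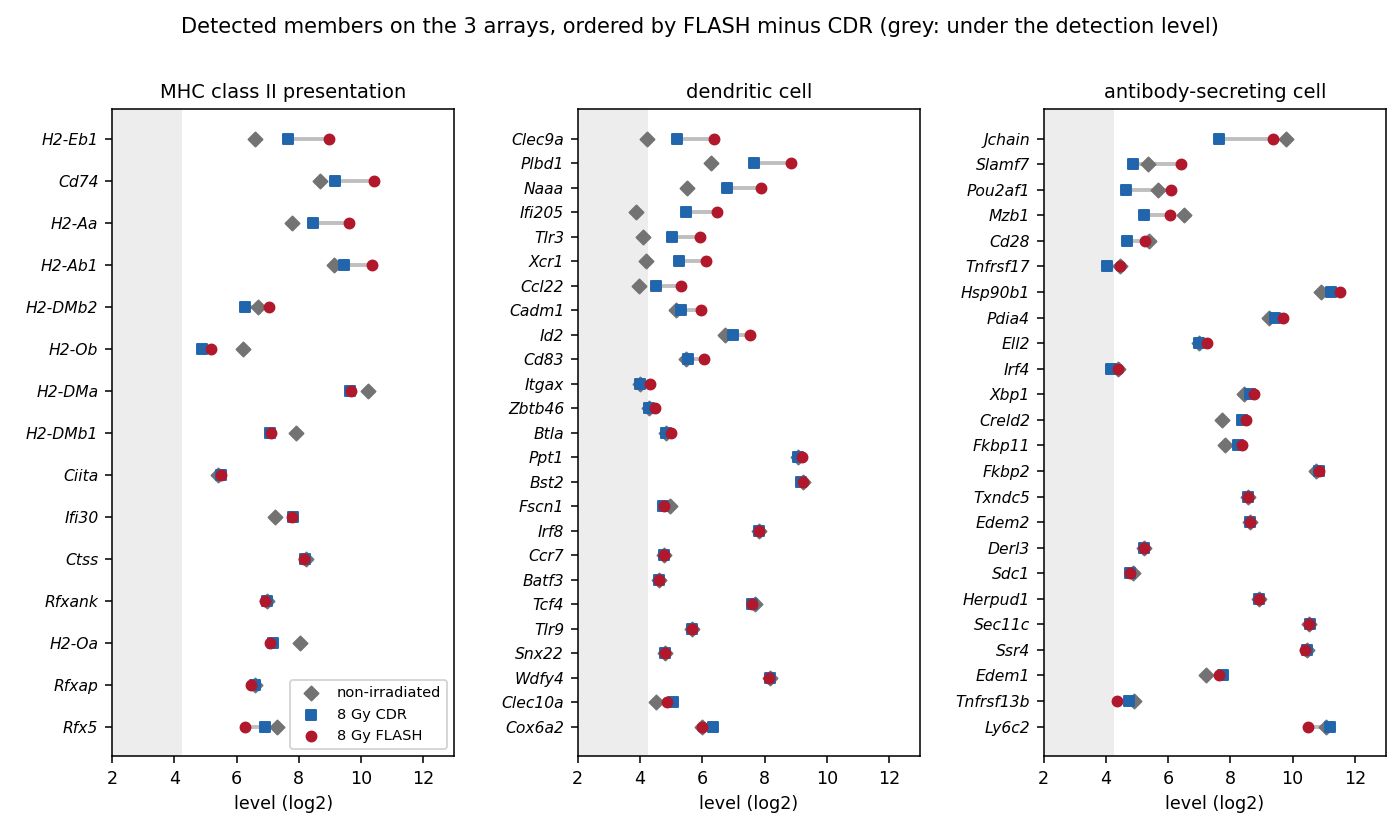
Levels (log2) of every detected member of 3 gene lists on the non-irradiated (grey diamond), CDR (blue square) and FLASH (red circle) arrays, 1 value per array, ordered by FLASH minus CDR. The upper members of the class II and dendritic panels run in the order non-irradiated, CDR, FLASH for H2-Eb1, Cd74, H2-Aa, H2-Ab1, Clec9a, Plbd1 and Naaa, whereas Jchain and Mzb1 are lowest on CDR and highest without irradiation.

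Survival genes of the BCL2 family differed through a single gene cluster. Bcl2a1b read 4.60, 5.98 and 7.44 on the non-irradiated, CDR and FLASH arrays (1.46), and Bcl2a1a 4.41, 4.70 and 6.00 (1.31). Both encode copies of the anti-apoptotic protein A1. The copies are nearly identical in sequence, so that which copy gave the signal is uncertain. The other 13 of 15 detected members lay between -0.20 (Pmaip1, the p53-induced protein Noxa) and 0.02 (Bak1, a pore-forming effector), and the median was 0.

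Other higher genes belonged to several cell types. Xcl1, the chemokine ligand of Xcr1 made by NK and T cells, read 6.33, 6.16 and 7.21 (1.05). Klrc1, the NK receptor subunit NKG2A, was under the level on CDR at 4.04 and read 5.06 on FLASH, at least 1.87-fold higher. Of 10 detected NK and cytotoxic genes 7 were higher, 1 lower and 2 equal, with a median of 0.25. The median was 0 over all 17 measured members and 0 under the stricter filter, so it rests on which members were detected. They included the chemokine gene Ccl5 at 8.14, 7.03 and 7.70 (0.67) and the interleukin 2 receptor beta chain gene Il2rb at 5.18, 4.93 and 5.60 (0.67). Nkg7, a granule protein, was the lower one at -0.18. Of the 3 NK markers, Ncr1 was higher (0.37), Klrb1c equal and Nkg7 lower. Nkg7 makes up most of their summed signal, which was 2589 on CDR and 2296 on FLASH.

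Some endothelial and stromal genes also stood higher. Sparc, a secreted matrix glycoprotein, read 6.96, 6.83 and 8.03 (1.20) and Timp3, an inhibitor of matrix metalloproteases, 6.65, 6.32 and 7.56 (1.24). Fabp4, a fatty acid binding protein of fat and endothelial cells, read 8.42, 8.59 and 9.61 (1.01). Of 18 detected members of the endothelial and stromal list 13 were higher, 3 lower and 2 equal, with a median of 0.15. Over all 25 measured members the median was 0.00. The vascular cadherin gene Cdh5 read 6.05, 6.18 and 6.995 (0.82), the VEGF receptor gene Kdr 4.94, 4.87 and 5.54 (0.67) and the sinusoidal scavenger receptor gene Stab2 5.44, 5.75 and 6.40 (0.65). Pecam1 and Emcn, which are also endothelial markers, read -0.01 and -0.06. Col1a1 was under the level on every array. The summed signal of the 6 endothelial and stromal markers was 569 on CDR and 626 on FLASH, and its part in these differences was not tested.

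Rhoc, a small GTPase that acts on the actin cytoskeleton, read 6.25, 5.33 and 6.80 (1.47), with CDR the low array. Prss34, a basophil and mast cell protease, read 9.25, 6.53 and 7.87 (1.33), so that FLASH lay between CDR and the non-irradiated level. Ltb, the lymphotoxin subunit that acts in lymphoid tissue organisation, read 8.25, 5.56 and 6.57 (1.003) and followed the same order. Apol7c, an apolipoprotein L family member, was at 3.46 on CDR and 4.73 on FLASH, at least 1.48-fold higher. Dnase1l3, an extracellular DNase of dendritic cells and macrophages, was at least 2.11-fold higher (4.05 on CDR and 5.23 on FLASH). Ltb, Fabp4, Klrc1 and Dnase1l3 were chosen after their values were seen.

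The lower genes were fewer and of mixed kind. Smim40, a predicted small membrane protein gene, read 4.996 without irradiation, 5.40 on CDR and 3.87 on FLASH, under the level, and was at least 2.27-fold lower. Sarnp, a nuclear RNA-binding protein of mRNA export, read 6.69, 7.05 and 5.73 (-1.32). Defa40, a defensin gene, was at least 2.04-fold lower on FLASH, and it was also under the level without irradiation. Ly6a2, a Ly6 family gene, read 7.90, 8.10 and 7.05 (-1.05), and Vaultrc5, a vault RNA gene, 6.65, 6.12 and 5.07 (-1.05). Rpl5, a large ribosomal subunit protein with many processed copies in the genome, read 6.17, 7.14 and 6.25 (-0.89), so that CDR was the high array. Vamp1, a vesicle fusion protein, read 6.02, 6.20 and 5.22 (-0.98).

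Monocyte receptors were among the lower genes. Csf1r, the receptor of macrophage colony-stimulating factor, read 6.36, 6.59 and 5.58 (-1.01). Ccr2, which draws monocytes out of the marrow, read 8.17, 9.62 and 8.75 (-0.87), with CDR the high array. Ms4a6c read 7.09, 7.25 and 6.52 (-0.73), the integrin gene Itgam 6.43, 5.76 and 5.08 (-0.68) and the coagulation factor gene F13a1 7.77, 8.28 and 7.63 (-0.65). The monocyte and macrophage list as a whole held 10 higher, 11 lower and 7 equal of 28 detected members, with a median of 0. Its 6 members at least 1.5-fold lower (all detected genes: 0.722%) stood beside 2 at least 1.5-fold higher (all detected genes: 1.11%). Those were Mrc1, the macrophage mannose receptor, at 5.87, 5.25 and 6.14 (0.89) and Mpeg1, a pore-forming protein of phagocytes, at 6.48, 6.71 and 7.40 (0.69). The summed signal of the 6 macrophage markers was 347 on CDR and 348 on FLASH.

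A small nucleolar RNA gene and a pair of microRNA genes were also among the 12 lower genes and were named after their values were seen. Snora74a, a guide RNA for pseudouridylation, read 5.49, 6.64 and 4.89 (-1.75). Mir505 read 4.63, 5.59 and 4.03, at least 2.60-fold lower on FLASH, and Mir677 read 5.46, 6.09 and 5.001 (-1.09). Each probe set carries the gene's symbol, and the sources used here do not say which arm or precursor it measures, so the values are not values of a mature microRNA. The mature arms of both genes are shown for identity, from the RefSeq table, with the seed (bases 2 to 8) in capitals. The 4 arms carry 4 different seeds.
mmu-miR-505-5p: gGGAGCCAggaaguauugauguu
mmu-miR-505-3p: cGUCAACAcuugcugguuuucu
mmu-miR-677-5p: uUCAGUGAugauuagcuucuga
mmu-miR-677-3p: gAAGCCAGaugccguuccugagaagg
The arms of miR-505 lie at chrX:60394451-60394473 and chrX:60394416-60394437 (minus strand), and those of miR-677 at chr10:128085291-128085312 and chr10:128085335-128085360 (plus strand).

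Small RNA classes were looked at together because of these genes. Of 85 detected small nucleolar RNA genes, 55 were lower on FLASH, 16 higher and 14 equal, with a median of -0.15. After Snora74a the lowest above the level on both arrays were Snora20 at 4.91, 6.55 and 5.79 (-0.76) and Snord52 at 4.35, 6.47 and 5.82 (-0.65), both lowest without irradiation. The highest were Snora62 (0.45) and Snord71 (0.39). Of 125 detected microRNA genes, 8% differed by at least 1.5-fold either way and the median was 0. The same share was 1.64% of 12026 protein-coding genes and 2.71% of 554 long non-coding RNA genes. It was 4.71% of the small nucleolar RNA genes and 10.5% of 95 transcribed pseudogenes. Of 103 other detected pseudogenes 57 were higher and 12 lower, with a median of 0.07. The transcribed ones did not share that lean, with 33 higher, 30 lower and a median of 0. The spread of differences also depended on level. Over detected genes outside the segments the SD was 0.208 at mean levels up to 5 and 0.107 above 10. The classes were not matched for level.

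The place of the non-irradiated level was counted among the higher, the lower and all detected genes. Of the 28 higher genes, the non-irradiated value was below both irradiated values in 11, between them in 12 and above both in 5. Among the 12 lower genes it was between them in 9, above both in 2 and below both in 1. Of all 13016 detected genes outside the segments it was below both in 3717, between them in 633, above both in 3198 and equal to both in 3514. Genes picked for a 2-fold gap leave room for a value between, whereas the 42.9% with equal FLASH and CDR values leave none. The shares of these sets are thus not comparable.

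Antibody V segments, the gene parts that join in B cells to encode variable regions, had the widest differences. The joined gene is transcribed in B cells and plasma cells, and a clone uses 1 heavy and 1 light chain V segment. Of 52 detected heavy chain V segments 43 were higher on FLASH, 6 lower and 3 equal, with a median of 1.56. Of 64 detected kappa V segments 54 were higher, 8 lower and 2 equal, with a median of 1.98. With dim values raised to the level these medians were 1.25 and 1.62. Of the heavy chain segments 19 passed the level on FLASH and not on CDR, and 2 the reverse. Of the kappa segments 28 did the former and 3 the latter. The filter fixed the direction of these segments. The 3 lambda V segments differed by 2.40 (Iglv2), 0.90 (Iglv3) and 0.52 (Iglv1). Exact ties made up 10.7% of all detected segments and constant regions.

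The largest differences were in segments that read low on CDR. Ighv10-1 read 8.46 without irradiation, 2.95 on CDR and 9.27 on FLASH, at least 34.5-fold higher on FLASH. Igkv4-70 read 5.83, 1.23 and 7.23, at least 8.42-fold higher. Igkv6-13 read 5.54, 3.76 and 9.71 (at least 47.0-fold) and Ighv2-6 read 4.77, 3.75 and 9.45 (at least 39.2-fold). Igkv4-57-1 was above the level on all 3 arrays, at 7.78, 4.67 and 10.48 (5.81). In Igkv6-13, Ighv2-6 and Igkv4-57-1 the FLASH value also lay over 2 log2 units above the non-irradiated value.

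A few segments ran the other way. Igkv1-88 read 7.74, 7.38 and 3.14, at least 8.99-fold lower on FLASH, and Igkv3-12 read 7.49, 8.08 and 5.67 (-2.41). Another Igkv4 segment read 3.76, 5.93 and 3.76 and was at least 3.28-fold lower. Igkv4-72 was at least 1.55-fold lower, and Ighv5-4 read 6.61, 7.55 and 6.31 (-1.24). By measured values 6 segments passed 2-fold downward, 5 of them by their bounds. In 4 of the 6 the non-irradiated value lay between the irradiated ones.

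Above the detection level were 117 of 185 measured antibody V segments on the non-irradiated array, 72 on CDR and 114 on FLASH. On all 3 arrays 65 passed it, and on none 50. Passing on FLASH and not on CDR were 47, of which 33 also passed without irradiation and 14 passed on FLASH alone, and 5 passed on CDR and not on FLASH. Passing without irradiation alone were 16, which the filter leaves out. Over all 185 measured segments the median of FLASH minus non-irradiated was 0 and that of CDR minus non-irradiated was -0.61, and both share the non-irradiated array. Over the 119 detected segments these medians were 0.20 and -1.38. The SD over these segments was 1.96 for FLASH minus CDR and 1.74 for FLASH minus non-irradiated. Segments of a family are similar in sequence and may share signal, so they are not independent.

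By family, all 4 detected Igkv5 segments, all 3 of Igkv6 and all 3 of Ighv14 passed 2-fold upward by their bounds, and 2 of 3 Igkv9 segments did. All 3 Igkv6 and all 3 Igkv9 segments read under the level on CDR, as did some Igkv5 and Ighv14 segments. Such segments were detected through FLASH alone, so the filter fixed their direction as higher. Of 25 Ighv1 segments 14 passed 2-fold upward and 0 downward by their bounds, and the median was 2.08 as measured and 1.19 with dim values raised. Of 22 Igkv4 segments 14 passed it upward and 1 downward, with medians of 2.11 and 1.94. In Ighv2 the 7 segments had a median of 0, 3 passing 2-fold upward and 1 downward, and in Ighv5 the 6 segments had a median of 0.39, 1 passing it each way. Both Igkv17 segments held equal values. When each locus was split at its middle detected segment by coordinate, the median was 1.44 and 1.83 in the lower and upper parts of the heavy chain locus and 1.46 and 2.33 in those of the kappa locus.

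Joining segments and constant regions gave the same picture for IgM and IgA and another for IgG. All 5 detected antibody J segments were higher on FLASH. They included Igkj5 at 11.82, 9.53 and 11.79 (2.26), Ighj3 at 10.92, 9.09 and 10.96 (1.87) and Ighj1 at 12.61, 10.995 and 12.35 (1.36). Igha, the IgA constant region, read 11.31, 9.95 and 11.21 (1.26), Ighm, that of IgM, 11.83, 10.49 and 11.64 (1.15), and Igkc, that of kappa light chains, 12.55, 11.83 and 12.46 (0.63). For these 3 CDR was the low array and FLASH lay within 0.19 of the non-irradiated level. Ighg1 read 7.51, 6.96 and 6.89 (-0.07). Ighg2b read 6.78, 6.45 and 3.90, at least 4.70-fold lower on FLASH, and Ighg2c 8.84, 4.34 and 3.61, at least 1.09-fold lower.

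**Figure D4:**
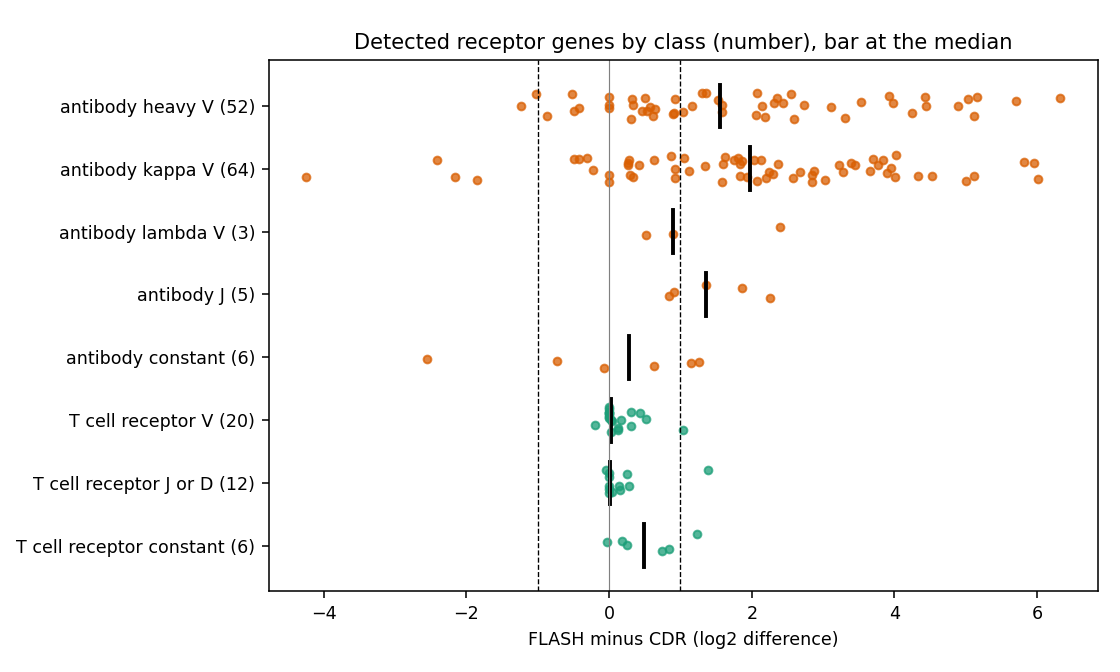
FLASH minus CDR log2 difference of every detected antibody (orange) and T cell receptor (green) gene, 1 point per gene, by class, with the number of genes in brackets, the class median as a bar and 2-fold marked by dashed lines. Heavy and kappa V segments centre on 1.56 and 1.98, and T cell receptor V segments on 0.02.

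T cell receptor V, D and J segments differed little, and constant regions more. Of 20 detected V segments 11 were higher, 1 lower and 8 equal, with a median of 0.02, and only Trav7-3 passed 2-fold, at 5.32, 5.32 and 6.36 (1.04). Of 12 detected J and D segments 6 were higher, 1 lower and 5 equal, with Trbj1-1 at least 1.82-fold higher (3.63 on CDR and 5.02 on FLASH). Among the 6 detected constant regions 5 were higher and 1 lower, with a median of 0.49 as measured and 0.30 with dim values raised. Trbc2, of the beta chain, read 8.23, 6.67 and 7.90 (1.23). Its neighbour Trbc1, similar in sequence, read 8.68, 6.64 and 6.82 (0.18). Trac, of the alpha chain, was at least 1.28-fold higher, at 3.79 on CDR and 4.52 on FLASH. Of the gamma chain genes Trgc4 was at least 1.43-fold higher, and Trgc2 and Trgc1 differed by 0.25 and -0.03.

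B lineage genes outside the segments did not follow the antibody genes as a group. Of 16 detected members 6 were higher, 4 lower and 6 equal, with a median of 0. After Pou2af1 came Igll1, a surrogate light chain part of precursor B cells, at 6.10, 5.47 and 6.10 (0.63), and Vpreb3 at 4.65, 5.01 and 5.46 (0.45). Cd79b, a signalling chain of the B cell receptor, read 9.04, 8.58 and 8.05 (-0.52). Pax5, the factor that fixes B cell identity, held equal values. The summed signal of the 5 measured B cell markers was 462 on CDR and 351 on FLASH. Cd79b makes up most of it, while Cd79a was 0.28 higher on FLASH.

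Stem cell identity genes lay slightly toward the higher side, all of them within 2-fold. Of 44 detected members 27 were higher, 10 lower and 7 equal, with a median of 0.07. At least 1.5-fold higher were 4 of them (all detected genes: 1.11%). Procr, the surface receptor EPCR used to isolate stem cells, read 7.15, 5.42 and 6.33 (0.91). Tek, an angiopoietin receptor, read 5.80, 5.15 and 5.76 (0.61), and Tgm2, a transglutaminase, 7.41, 6.57 and 7.18 (0.61). In these 3 FLASH lay between CDR and the non-irradiated level. Clca3a1 ran upward in both, at 5.52, 6.21 and 6.92 (0.70). The part of the endothelial signal in these 4 differences was not tested. The transcription factor genes Mycn (0.58), Meis1 (0.42) and Gata2 (0.33) were higher too. Hlf, Mecom, Slamf1 and Vwf differed by 0.10, 0.07, 0.13 and 0.14, and Hoxb5, Erg, Lmo2 and Prdm16 held equal values. On the lower side Kit, the stem cell factor receptor, read 10.25, 9.78 and 9.38 (-0.40) and Gfi1, a repressor that restrains stem cell cycling, 6.35, 6.91 and 6.60 (-0.31). In 36 of the 44 the non-irradiated value lay above both irradiated values.

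Progenitor genes had a median of 0 over 18 detected members, with 6 higher, 8 lower and 4 equal. Ly6d, a surface marker of B-biased lymphoid progenitors, read 7.35, 5.44 and 6.38 (0.95), and Dntt, which adds bases during receptor gene joining, 8.99, 6.30 and 6.90 (0.60). Flt3, the cytokine receptor of lymphoid-primed progenitors, read 8.69, 7.64 and 7.22 (-0.42), and Wfdc17, a secreted inhibitor, 8.18, 6.44 and 5.48 (-0.96). Cd34 and Cd48, surface proteins of progenitors, differed by -0.10 and -0.13. T cell genes had a median of 0 over 13 detected members, with the costimulatory receptor gene Cd28 at 5.40, 4.68 and 5.27 (0.60) and the transcription factor gene Gata3 at 6.49, 5.48 and 5.96 (0.48).

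Red cell genes were a little higher on FLASH. Of 34 detected members 24 were higher, 4 lower and 6 equal, with a median of 0.07 and 0 at least 1.5-fold either way. Klf1, the master factor of red cell genes, read 6.16, 7.13 and 7.59 (0.46), and Epor, the erythropoietin receptor, 6.13, 6.52 and 6.96 (0.43). In 27 of the 34 the non-irradiated value lay below both. Megakaryocyte genes had a median of 0.03 over 21 members, between -0.16 (Gp9, a platelet glycoprotein) and 0.25 (Gp1bb). That median turned negative under median centring and quantile normalisation.

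Granulocyte genes tended the other way, with 16 of 21 detected members lower, 4 higher and 1 equal and a median of -0.11. Lcn2, the granule protein lipocalin 2, read 6.97, 9.15 and 8.40 (-0.75), and Pglyrp1 9.65, 10.24 and 9.78 (-0.45). The primary granule genes Elane, Ctsg and Mpo differed by -0.20, -0.25 and -0.07. Against this S100a9, a calgranulin of mature neutrophils, read 10.12, 7.87 and 8.81 (0.94), while its partner S100a8 differed by 0.18. The summed signal of the 6 neutrophil markers was 1203 on CDR and 1542 on FLASH, a ratio of 1.28. Mast cell, basophil and eosinophil genes had 8 higher, 5 lower and 2 equal of 15, with a median of 0.07 that was 0 over all 21 measured members. The mast cell tryptase gene Tpsb2 read 3.89, 5.89 and 6.81 (0.92) and the chymase gene Mcpt4 3.47, 4.52 and 5.12 (0.60), while Prg2, the eosinophil granule major basic protein, read 10.56, 9.47 and 8.97 (-0.50).

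Genes of the response to DNA damage were near equal at 15 days. Of 29 detected p53 targets 7 were higher, 11 lower and 11 equal, with 0 at least 1.5-fold either way. Cdkn1a, the p21 cell cycle inhibitor, read 9.34, 9.39 and 9.16 (-0.23). Mdm2 read 7.64, 7.58 and 7.58, and Ccng1 8.96 on every array. Phlda3, an inhibitor of Akt signalling, read 5.44, 5.52 and 5.95 (0.43), and Ddit4, an inhibitor of mTOR signalling, 7.67, 6.56 and 6.06 (-0.50). DNA damage signalling genes ran from -0.09 (Atr) to 0.11 (Brca1) over 22 members, homologous recombination and Fanconi genes from -0.22 (Xrcc3) to 0.11 over 25, and end joining and single-strand repair genes from -0.16 (Apex1) to 0.28 (Lig4, the ligase of end joining) over 20. All 3 lists had a median of 0. Cdkn1b, the p27 inhibitor of quiescent cells, read 8.51, 7.82 and 8.16 (0.35), and the CDK inhibitor list had a median of 0.00.

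Cell cycle genes differed by small amounts. Of 38 detected mitosis genes 23 were higher, 7 lower and 8 equal, with a median of 0.03 and a range from -0.21 (Ttk, a spindle checkpoint kinase) to 0.23 (Hmmr, a spindle protein). Mki67, the proliferation marker, differed by -0.00. DNA replication genes had a median of 0 over 39 members, from -0.10 (Mcm3, a helicase subunit) to 0.25 (Cdc6, a loader of that helicase). Of 38 mitosis genes 36 and of 39 replication genes 33 read lower without irradiation than on both irradiated arrays.

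Antioxidant genes were read because oxygen radicals are central to how FLASH has been discussed. Of 34 detected members 11 were higher, 13 lower and 10 equal, with a median of 0 and 0 at least 1.5-fold either way. Sod2, the mitochondrial superoxide dismutase, held the same value on FLASH and CDR, and Hmox1, haem oxygenase, read 8.87, 7.99 and 8.16 (0.18). The glutathione genes on the lower side were Gstm1 at 6.01, 6.63 and 6.18 (-0.45), Gpx3 at 4.84, 5.27 and 4.84 (-0.44) and Gsr, glutathione reductase, at 8.34, 9.21 and 8.83 (-0.38). Of 5 detected genes with Gstm symbols 4 were lower and 1 higher, with a median of -0.32. The lowest of the 5, at -0.75, was not on the list. Hypoxia and glycolysis genes lay between -0.27 and 0.16 over 25 members and oxidative phosphorylation genes between -0.29 and 0.07 over 32, each with a median of 0.

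TGF-beta holds stem cells quiet and is a known mediator of radiation injury. Tgfb1 itself read 10.71 without irradiation and 10.77 on both irradiated arrays. Of 27 detected pathway members 14 were lower, 5 higher and 8 equal, with a median of -0.02. Id2, a target that blocks E proteins, read 6.73, 6.98 and 7.53 (0.55), and Smad1, a transducer of BMP signals, 7.51, 7.44 and 6.96 (-0.48).

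Interferon-stimulated genes had 19 lower, 7 higher and 14 equal of 40 detected members, with a median of 0. The lowest were the antiviral sensors Oas1a at 5.54, 5.90 and 5.28 (-0.61) and Oas2 at 6.50, 6.64 and 6.09 (-0.55), and Gbp3, a guanylate-binding protein, at 7.13, 7.32 and 6.76 (-0.56). Irf7, Isg15 and Stat2 held equal values. MHC class I genes had 13 lower, 4 higher and 2 equal of 19. H2-M3, which presents formylated peptides, read 6.72, 6.35 and 5.61 (-0.73), while the classical genes H2-K1 and H2-D1 differed by -0.01 and -0.08. Inflammation and NF-kB genes had a median of 0 over 27 members, with Ccl5 the only one at least 1.5-fold apart.

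Stress response lists pointed in different directions. Immediate early genes, which respond within minutes and also to cell handling, had 17 higher, 5 lower and 4 equal of 26, with a median of 0.17. Klf2, a factor of quiescent cells, read 8.50, 7.30 and 7.87 (0.57), Atf3 7.04, 7.11 and 7.64 (0.52) and Nr4a1 10.03, 8.07 and 7.73 (-0.33). Heat shock genes had 16 higher, 4 lower and 1 equal of 21, with a median of 0.04. The inducible chaperone genes Hsph1 and Hspa1b led them, at 7.26, 7.71 and 8.43 (0.72) and at 3.44, 4.30 and 4.9998 (0.70). Unfolded protein and ATF4 response genes had 15 lower, 6 higher and 3 equal of 24, with a median of -0.08. Ern1, the sensor IRE1, read 8.41, 8.17 and 7.72 (-0.44).

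Of the remaining lists, ribosome biogenesis genes had a median of -0.01 with 16 lower, 7 higher and 8 equal of 31, from -0.30 (Fbl, the methyltransferase fibrillarin) to 0.17 (Npm1, nucleophosmin). Cytokine receptor genes had 11 lower, 3 higher and 11 equal of 25, with Csf1r, Flt3 and Kit the lowest. Over all detected genes outside the segments 32.2% were lower and 25% higher. Adhesion and homing genes had 13 lower, 7 higher and 8 equal of 28, with Ccr2 and Itgam at least 1.5-fold lower and Ackr1, the atypical chemokine receptor, the highest at 4.94, 4.94 and 5.41 (0.48). Housekeeping genes had a median of -0.00 over 11 members, which turned positive under quantile normalisation, and ran from -0.40 (Eef1a1, an elongation factor with many processed copies) to 0.19 (Srp14). The dot plot of all 36 lists sets these medians side by side.

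**Figure D5:**
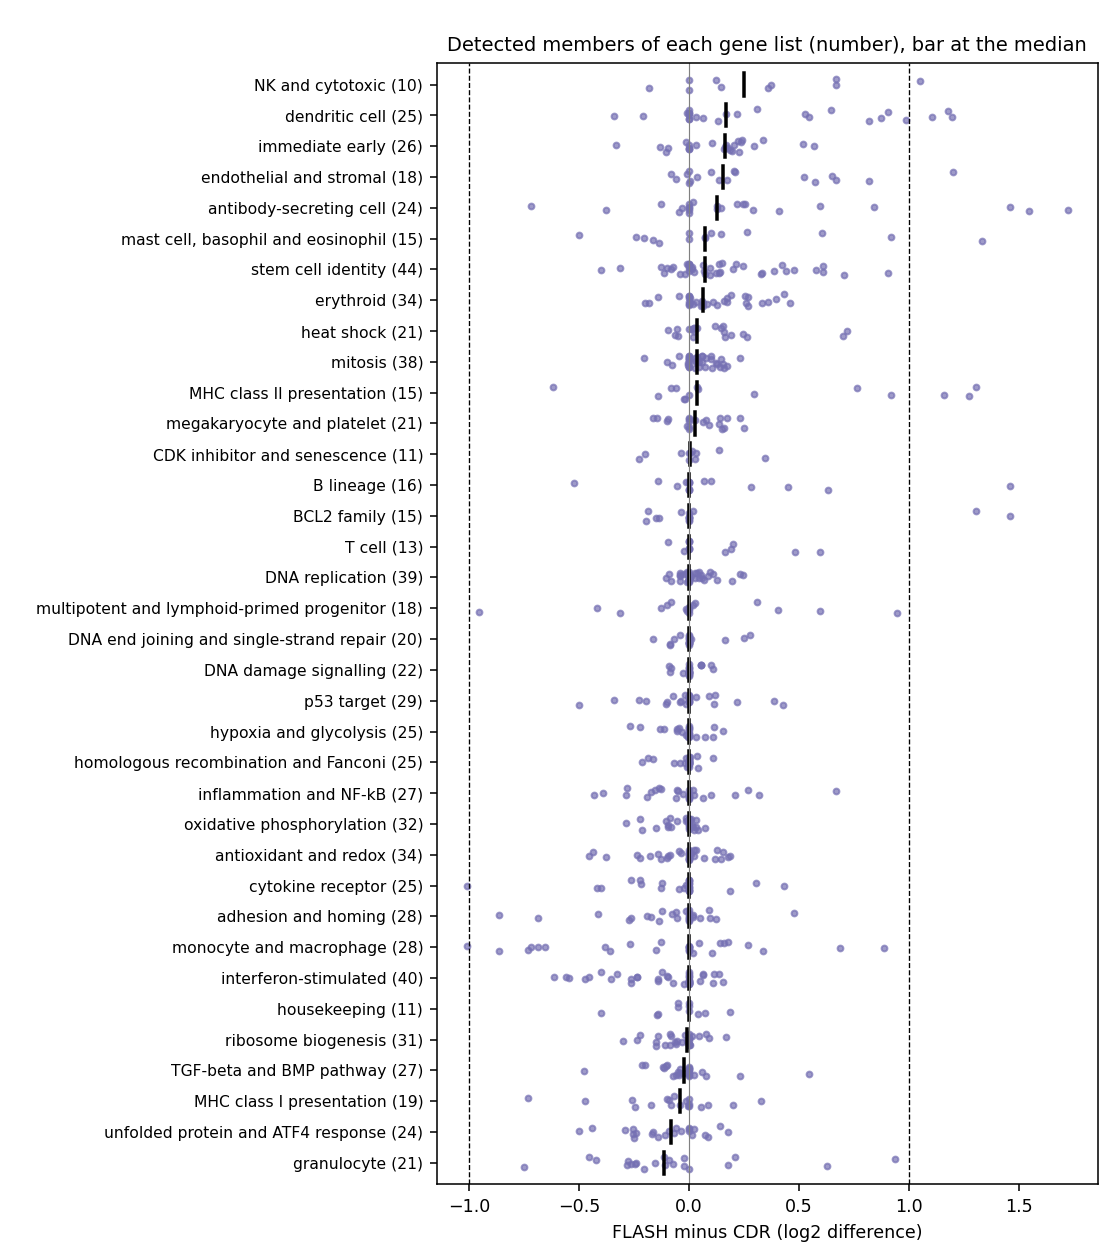
FLASH minus CDR log2 difference of every detected member of the 36 gene lists, 1 point per gene, with the number of members in brackets, the list median as a bar and 2-fold marked by dashed lines. List medians over detected members run from -0.11 (granulocyte) to 0.25 (NK and cytotoxic, 0 over all measured members), and single genes such as Jchain (1.72) and Csf1r (-1.01) lie far outside them.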

How the data were processed

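Expression was measured on 3 Affymetrix arrays, 1 per group. Per the labels' protocols, biotin-labelled cDNA was made by the whole transcript sense target assay, and the submitters' processing notes name Partek without a version. The deposited values are the authors' processed levels per probe set, taken as log2 from their range. How background, probe summaries and scaling were handled is not given in the sources used here. Exact ties between arrays are common in these values, which pulls medians to 0.

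Symbols came from the platform's probe table: 23185 probe sets had 1 symbol, 0 several and 2021 none. Biotypes and sequences came from RefSeq tables (GRCm38.p6). Values were used as deposited. The detection filter let a gene pass through its brighter array alone, so counts over detected genes hold genes that had to differ.

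The members and the 36 gene lists were chosen with earlier results of these data known. Genes named are the 15 largest differences a direction outside segments (without gene models, predicted genes, pseudogenes, microRNA, small nucleolar RNA, histone and odorant or pheromone receptor genes), up to 3 a direction per list, 5 antibody V segments a direction, detected constant regions and a fixed set of stem cell, p53, antibody, class II, BCL2 and redox genes. Ly6a and Bcl2a1d of that set were not analysed here. Further genes, families and RNA classes were chosen after their values were seen.

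Alternatives were median centring, quantile normalisation, a lowess fit of difference on level (statsmodels 0.14.6), 32 added before the log, the detection filter dropped, that filter at the 99th percentile, dim readings lifted to the level, and folds of 1.5 and 3. Calling of 2-fold differences was tried on simulated data under the main setting, median centring, quantile normalisation and lowess. Those data had no segments and no built-in ties, and only brighter genes were made to differ. They do not cover the segments, the dim genes or the other alternatives. Python 3.11.15, numpy 2.4.6, pandas 2.3.3 and matplotlib 3.10.9 were used.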

Additional observations from a re-analysis of the deposited data

Results flagged for a closer look

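The 2021 probe sets without a gene symbol entered no comparison above. Of them, 1101 were detected on the FLASH or CDR array, and by measured values 4 (0.363%) passed 2-fold upward on FLASH while 0 passed it downward. The share of named genes outside the segments that passed it upward was 0.215%. The differences of unnamed probe sets ran from -0.89 to 1.26. The sources used here do not name their genes.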

How the results depend on the processing

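The measured counts outside segments of 28 genes past 2-fold upward and 12 downward became 23 and 15 under median centring, 26 and 14 under quantile normalisation, 28 and 12 under lowess, 35 and 18 without a filter and, with dim readings lifted to the level, 23 and 11. With an offset of 32 before the log they became 8 and 1. The stricter filter left 7 lower genes, a fold of 1.5 gave 145 and 94, and a fold of 3 gave 1 and 1. Of 76 higher and 6 lower antibody V segments, the stricter filter left 42 and 3, and the offset left 3 lower. The 2 T cell receptor segments at least 2-fold higher became 0 with the offset or at 3-fold, and 1 under the stricter filter or with dim readings lifted. The offset compresses low values, and the stricter filter tests fewer genes. Median centring moved the median of detected genes by -0.03. Bak1 (0.02) turned sign under 2 settings, reaching -0.01, and Cdkn2c and Ndufa5 (both 0.03) under 1 each. The dendritic cell median of 0.17 was 0.10 without a filter and 0.54 under the stricter one. The V segment medians against the non-irradiated array over all measured segments, and medians with dim readings lifted, were added after seeing the data. The list medians of megakaryocyte, CDK inhibitor and housekeeping genes changed sign under a scaling, each being within 0.03 of 0. List medians of exactly 0 could not count as a change of sign, and median centring took them to -0.03. Counts of genes higher or lower by any amount rest on exact ties. Outside segments, 3251 higher and 4187 lower became 2638 and 10551 under median centring. The higher, lower and equal counts of each list rest on such ties too. No paired analysis was possible because each group has 1 array, and no replicate could be left out. Signal near background limits the dim genes, whose folds are lower bounds.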
